A study of Mus musculus with 22 samples.

Results

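Lung alveolar fibroblasts were sought among pooled solid organs of mice without tumours, in single-cell libraries. Each barcode marks a droplet, and each UMI, a molecular tag, marks 1 transcript caught in it. A barcode was taken when it had 200 or more genes, no more than 25% of its UMIs from mitochondrial genes, at least 1 UMI of 3 or more of Npnt, Itga8, Inmt, Mfap4, Tcf21 and Pdgfra, and no UMI of Ptprc, Pecam1, Epcam, Cdh5 or Pi16. This gate took 304 of the 93055 barcodes within the quality limits of 11 organ libraries, out of 179929 called barcodes in the 22 libraries of the series. The 11 blood libraries held 2788 barcodes within the same limits and 0 in the gate, which allows a share of up to 0.108%. The barcodes were chosen by the measured counts of these 11 genes, so the levels of those genes are given as descriptions without tests.

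Each organ library pooled kidney, liver, lung and stomach with epididymis in males or uterus in females, and since the hashtag counts were not read, the organ of a barcode is unknown. All mice carried Prom1-CreERT2, a tamoxifen-inducible Cre recombinase driven by the Prom1 promoter, and the Rosa26ZSG reporter, on a mixed B6 and FVB/N background. Nalcn, on chromosome 14 (mm10, 14:123276634-123627144, minus strand), encodes a sodium leak channel, and by label the mice were wt (wild type), het (heterozygous) or null for this gene. Because a conditional allele was used, Nalcn was lost only in cells that expressed Prom1 at tamoxifen dosing and in their descendants. The wt libraries were replicates 1, 2 and 3 from males of 571, 571 and 608 days and replicates 4 and 5 from females of 611 and 654 days. Both het libraries came from males of 551 days, null replicate 2 from a male of 552 days and null replicate 3 from a mouse labelled female of 611 days. Another 2 libraries entered no comparison of genotypes, because the title and the strain entry named different genotypes. Null replicate 3 went against its label of female: 23.9% of its barcodes carried at least 3 epididymal markers. Its gated barcodes held 140 UMIs (1555 CPM) of Xist, the transcript of the inactive X chromosome (CPM is the UMI count scaled to a common total). They also held 2 UMIs (22.2 CPM) of the Y-linked gene Ddx3y, 1 each of Eif2s3y and Uty and 0 of Kdm5d. Each of these Y-linked counts is under 3 UMIs, and their source in null replicate 3 was not tested. The share differences and the number of genes called between deleted and wt libraries are also given without it, and the null, het and sex gene counts without it are given from other sets of libraries or covariates, because the 5 libraries with the sex covariate left no residual degrees of freedom. The 2 ungrouped libraries are called here the het-titled library (a male of 610 days, strain entry null) and the null-titled library (a female of 647 days, strain entry wt). The labels do not say whether libraries of the same age and sex came from the same mouse, so p-values measure the spread between libraries.

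Alveolar fibroblasts lie in the thin walls between air sacs, next to type 2 epithelial cells and capillaries, and make matrix and secreted factors for both. The genes of the gate include Npnt (nephronectin, a basement membrane ligand) and Itga8, which encodes its integrin receptor subunit. Inmt encodes a methyltransferase abundant in lung, Mfap4 a microfibril-associated protein, Tcf21 a transcription factor of lung and kidney mesenchyme, and Pdgfra a receptor of platelet-derived growth factor. In mm10 the genes lie at 3:132881745-132950291 (Npnt, minus strand), 2:12106632-12301922 (Itga8, minus), 6:55170626-55175043 (Inmt, minus), 11:61485431-61488900 (Mfap4, plus), 10:22817281-22820174 (Tcf21, minus) and 5:75152292-75198215 (Pdgfra, plus). Adventitial fibroblasts, the relatives that surround larger vessels and airways, are marked by Pi16 and by the collagens and proteoglycans of loose connective tissue.

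The gated barcodes were few and shallow. They held a median of 1638 UMIs, with a range of 508 to 16366, and a median of 914.5 genes and 12.9% mitochondrial UMIs. All barcodes within the limits in the organ libraries had a median of 1847 UMIs. Scrublet, a doublet score, was used to mark the top-scoring barcodes of each library. The share to mark was preset, at 0.8% per 1000 called barcodes and at most 25%. It marked 43 of the 304 (14.1%) against 15088 (16.2%) of the 93055, so these shares are not measured doublet rates. Pairs of organ libraries shared up to 77 barcode sequences within the limits, no gated barcode was gated in a second library, and 7 occurred in another library outside the gate.

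Of the gate genes, Inmt was found in 89.8% of the 304 barcodes, Mfap4 in 72.7%, Pdgfra in 68.8%, Npnt in 67.1%, Itga8 in 42.4% and Tcf21 in 37.8%. The gate was met with exactly 3 genes by 160 barcodes, with 4 by 74, with 5 by 45 and with all 6 by 25. The most frequent combinations were Npnt, Inmt and Mfap4 (38 barcodes) and the same with Pdgfra (30). A group of 605 barcodes lay just outside with 2 of the genes and no exclusion gene. Limch1, an actin-binding protein gene and lung fibroblast marker that the gate did not use, was found in 86.8% of barcodes with 4 or more gate genes, in 38.1% of those with exactly 3 and in 14.2% of those just outside. Tbx4, a transcription factor gene of lung mesenchyme, was found in 22.9%, 5% and 0.992%. Dcn (decorin), the abundant proteoglycan of adventitial fibroblasts, ran the other way, with 16.7%, 44.4% and 44.3%.

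The exclusion genes removed more barcodes than the gate kept. Of 1393 barcodes with 3 or more gate genes, 1089 held an exclusion gene, which was Cdh5 in 827, Pecam1 in 779, Ptprc in 321, Pi16 in 63 and Epcam in 51. The 933 with Cdh5 or Pecam1, genes of endothelial cells, had a median of 3271 UMIs, and Scrublet marked 20.8% of them. They held Limch1 in 80.6% and Tbx4 in 15.2% of barcodes and also Cldn5, a tight junction gene of endothelium, in 77.3%, where the gated barcodes held Cldn5 in 13.2%. Their summed level of 16 alveolar fibroblast markers was 1844 CPM and that of 6 endothelial markers 4667 CPM, against 3149 and 538 CPM in the gated barcodes. Endothelial barcodes with none of the 6 gate genes (6433) stood at 306 and 6006 CPM. The removed barcodes held both sets at intermediate summed levels, and whether they were doublets was not tested.

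The 304 barcodes were checked against 16 alveolar fibroblast markers outside the gate. At least 3 of these were found in 182 barcodes (59.9%), and none in 25 (8.22%). A clustering of the gated barcodes alone gave 7 sub-clusters, and only a part carried the label of the gate. The names below rest on marker lists, and the sub-cluster genes are descriptions, because they formed the clusters.

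Sub-clusters 1 (92 barcodes) and 2 (81) were alveolar fibroblast-like, with 13 and 14 of the 16 markers at least 2-fold over all other organ barcodes and in at least 10% of their own. Limch1 stood at 2078 CPM in 88.0% of sub-cluster 1 and at 1677 CPM in 81.5% of sub-cluster 2. Sub-cluster 1 was set apart from the other gated barcodes by Thbs1 (thrombospondin 1, 4905 CPM, in 83.7%), the small heat shock protein gene Hspb1 (5348 CPM) and the co-chaperone gene Dnajb1 (1460 CPM). The smooth muscle genes Acta2 and Tagln and the chemokine gene Ccl4 were also among its 10 leading genes, from 6.52%, 12.0% and 5.43% of its barcodes. The genes that set sub-cluster 2 apart belonged to other organs and came from few barcodes: Aqp2 of the kidney collecting duct in 2.47%, Gpx5 of the epididymis in 12.3% and Sftpc of type 2 cells in 7.41%. Scrublet marked 29.6% of sub-cluster 2 and 10.9% of sub-cluster 1.

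Sub-cluster 3 (59 barcodes) was adventitial fibroblast-like despite the exclusion of Pi16. It held 11 of 12 adventitial markers, with Dcn at 13200 CPM in 100% of barcodes, the apolipoprotein gene Apod at 1751 CPM and the proenkephalin gene Penk at 823 CPM. Npnt was found in 11.9% and Itga8 in 6.78% of it, against 85.9% and 53.3% of sub-cluster 1. Tcf21 and Pdgfra, which adventitial fibroblasts also use, were found in 66.1% and 84.7%.

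Sub-cluster 4 (33 barcodes) stayed unnamed because its markers were mixed. It held 5 of 6 endothelial markers, among them Cldn5 at 963 CPM in 63.6%, although no barcode held Pecam1 or Cdh5. It also held 5 of the 16 alveolar fibroblast markers and 6 of 11 lung mesenchyme transcription factor genes, with Npnt in 84.8% and Limch1 in 60.6% of barcodes. Its leading genes against all other organ barcodes were Mfap4, Inmt and Npnt, which are genes of the gate, a contrast set by the gate. Against the other gated barcodes they were Cd93, Ptprb and Cldn5. Sub-cluster 5 (18) stayed unnamed and was led by Fbln5 (an elastic fibre protein, 3749 CPM in 100%) and Igfbp3 (6143 CPM), with Itga8 in 88.9% and Inmt in 22.2%. Sub-cluster 6 (11) stayed unnamed and was led by haemoglobin transcripts, with Hbb-bs at 186863 CPM. It also held 11 of the 16 alveolar fibroblast markers and 5 of 11 lung mesenchyme transcription factor genes, with Npnt and Inmt each in 81.8%, and Scrublet marked 45.5% of it. Of its 11 barcodes 8 came from wt libraries, 6 of them from wt replicate 2 and 1 the only gated barcode of wt replicate 5. Sub-cluster 7 (10) carried 6 of 6 kidney proximal tubule markers, with the androgen-regulated kidney gene Kap at 29365 CPM, and 8 of its barcodes came from wt replicate 2.

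**Figure D1:**
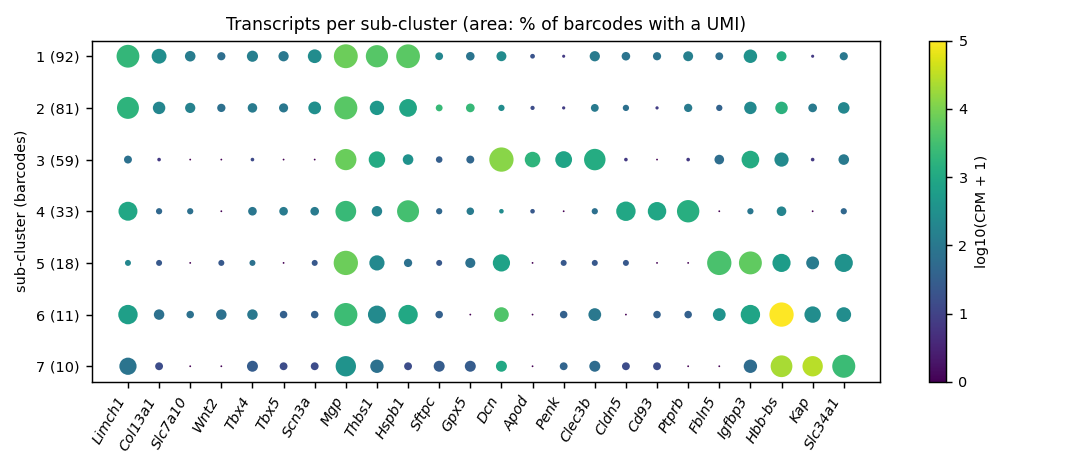
Transcripts in the 7 sub-clusters of the gated barcodes. Rows are sub-clusters with their number of barcodes, columns are genes, the dot area is the percent of barcodes with a UMI and the colour is log10(CPM + 1) of the summed counts. Limch1 is found in 88.0% and 81.5% of sub-clusters 1 and 2 and in 10.2% of sub-cluster 3, where Dcn is found in 100%.

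The results below are given for all gated barcodes. The shares and some UMI counts are therefore also given, as values without a test, for the 173 barcodes (56.9%) of sub-clusters 1 and 2. The 173 were chosen after their values had been seen. Sub-cluster 3 supplied 21 of the 46 gated barcodes of het replicate 1, and sub-cluster 4 supplied 20 of the 86 of the null-titled library. Sub-cluster 5 supplied 8 of the 15 of wt replicate 1. All 4 gated barcodes of the het-titled library were in sub-cluster 3.

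**Figure D2:**
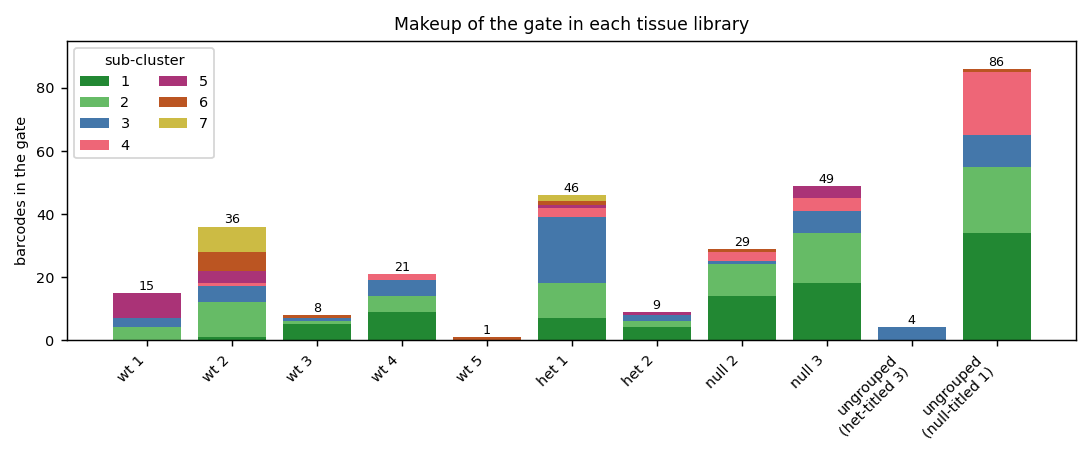
Gated barcodes per organ library, stacked by sub-cluster. The number above each bar is the count of gated barcodes, from 1 in wt replicate 5 to 86 in the null-titled library. Sub-clusters 1 and 2, in green, make up 24 of 29 barcodes in null replicate 2 and 12 of 36 in wt replicate 2.

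The first question was what these barcodes express beyond the genes that chose them, and where they differ from their closest relatives. For comparison, an adventitial and a mural gate were drawn with the same quality limits and no UMI of Ptprc, Pecam1, Epcam or Cdh5. The adventitial gate took 835 barcodes with at least 3 of Pi16, Col14a1, Dpt, Clec3b, Serpinf1 and Dpp4. The mural gate, for pericytes and smooth muscle, took 421 barcodes with at least 3 of Notch3, Cspg4, Rgs5, Cox4i2, Higd1b, Myh11 and Acta2. Levels are CPM of counts summed over barcodes in the 6 libraries with at least 20 gated barcodes. They are listed in the order wt replicates 2 and 4, het replicate 1, null replicates 2 and 3, and the null-titled library. All 3 gates were cut on measured counts, so the levels are descriptions. Over all 11340 genes with at least 10 UMIs, 3.98% were higher in alveolar than in adventitial barcodes in all 6 libraries and 5.49% were lower in all 6. Against the mural gate 4.5% of 10316 genes were higher and 6.51% lower.

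The gate genes themselves were above both other gates in all 6 libraries, a contrast set by the gate. Inmt was at 1956, 3421, 1765, 3864, 3032 and 3403 CPM, and Mfap4 at 686, 1466, 737, 1619, 1255 and 2097 CPM. Npnt ran from 686 to 1396 CPM, Pdgfra from 491 to 749 CPM, Itga8 from 296 to 433 CPM and Tcf21 from 139.6 to 307 CPM. Npnt and Itga8, a ligand and its receptor subunit, were thus both present in each of the 6 libraries. Itga8 varied least between them relative to its mean (337 ± 52.5 CPM, SD, n = 6), and wt replicate 2 was the lowest for Npnt, Itga8, Mfap4 and Pdgfra.

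The alveolar fibroblast markers stood above the adventitial level in all 6 libraries for 9 of 16 genes and below it for 1, and above the mural level for 11. Limch1 (5:66745827-67057158, plus strand) was at 598, 1350, 795, 1420, 1399 and 1539 CPM in the alveolar gate and between 30.7 and 99.8 CPM in the adventitial gate. Col13a1 (10:61838236-61979108, minus strand), a membrane collagen that gives these cells a common name, was at 101, 140, 82.9, 199, 155 and 133 CPM and at 5.34 CPM or less in the adventitial gate. For both genes the alveolar and adventitial gates did not overlap, and the lowest alveolar value of Limch1 came from wt replicate 2. Limch1 was also above the mural level in all 6 libraries, and Col13a1 was not.

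Cdo1, a cysteine-oxidising enzyme gene, averaged 370 ± 143 CPM (SD, n = 6 libraries) in the alveolar gate, and the highest adventitial library was at 42.7 CPM. Spon1, a secreted matrix protein gene, averaged 288 ± 98.1 CPM and Nebl, encoding a small actin-binding protein, 202 ± 67.8 CPM. The amino acid transporter gene Slc7a10, the carboxylesterase gene Ces1d, the matrix gene Mamdc2 and Fgf10 were the other markers above in all 6. Gpc3, a proteoglycan gene often listed for alveolar fibroblasts, ran the other way: it was at 222, 209.5, 713, 170.4, 422 and 349 CPM, below the adventitial level in each library. Wnt2, a ligand of the alveolar niche, was sparse at 34.1 ± 22.6 CPM, with no UMI in null replicate 2.

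For reference, the same genes were read in 30015 leukocyte barcodes with Ptprc and none of the 6 gate genes. Limch1 was found in 1.87% of these against 61.2% of the alveolar gate, Col13a1 in 0.163% against 20.4%, Cdo1 in 1.83% against 36.5% and Aldh1a1 in 3.11% against 47.0%. The leukocyte barcodes had a median depth of 2016 UMIs against 1638. In the 6433 endothelial barcodes with none of the 6 gate genes, Limch1 was found in 22.6%, Col13a1 in 3.79%, Cdo1 in 2.60% and Aldh1a1 in 4.37%. Both sets were chosen to lack the 6 gate genes, which leaves out barcodes with leaked gate transcripts. Their shares therefore do not measure leak between droplets.

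Of 11 transcription factor genes of lung mesenchyme, 4 were above the adventitial level in all 6 libraries (Tbx2, Tbx4, Tbx5 and Hoxa5) and none was below in all. Tbx4 (11:85886422-85916097, plus strand), a factor of lung and hindlimb mesenchyme, was at 67.2, 46.5, 91.1, 170, 55.5 and 83.2 CPM, against 0 to 16.6 CPM in the adventitial gate. Tbx5, its relative, averaged 67.7 ± 31.3 CPM and no adventitial library passed 10.7 CPM. Tbx2 ran from 56.8 to 211 CPM in the alveolar gate, and the mural gate, at 36.0 to 302 CPM, overlapped with it. Markers of other organs' stroma were looked for as well. Reln and Lhx2 of liver stellate cells and Barx1 and Nkx2-5 of stomach stroma had no UMI in the gated barcodes, whereas Lrat, a retinoid-storage gene shared by stellate cells and alveolar fibroblasts, averaged 128 ± 101 CPM.

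Among 31 measured ligands of the alveolar niche, 4 were above the adventitial level in all 6 libraries and 6 below. Fgf10, which guides lung epithelium, averaged 58.9 ± 23.9 CPM and Bmp5, a bone morphogenetic protein gene, 75.7 ± 36.8 CPM. Angpt1, the angiopoietin that acts on capillary endothelium, was at 195, 256, 157, 199, 300 and 275 CPM against at most 42.7 CPM in the adventitial gate. The axon guidance gene Slit2 completed the 4. Wnt4, Csf1, Il33, Slit3, Gdf10 and Sfrp1 were below in all 6. The shares above and below, 12.9% and 19.4%, stood beside 3.98% and 5.49% over all genes.

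Receptor genes split evenly, with 4 of 28 above and 4 below in all 6 libraries. Robo2, a Slit receptor gene, was at 86.3 ± 37.4 CPM and at 10.7 CPM or less in the adventitial gate. Bmpr2, Ptch1 and Igf1r were the other 3 above. Pdgfrb, another PDGF receptor gene, ran from 16.6 to 77.7 CPM and lay below the adventitial gate in all 6 and below the mural gate, which reached 559 CPM. Tgfbr2, Tgfbr3 and Lpar1 were also below the adventitial level.

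Fibrillar collagen transcripts summed to 2175 CPM in the alveolar gate, 7475 CPM in the adventitial gate and 992 CPM in the mural gate. Elastic fibre transcripts summed to 2670, 5128 and 1008 CPM in the same order. Against the mural level, 1 of 13 fibrillar collagen genes and 4 of 19 elastic fibre genes were above in all 6 libraries and none below. Against the adventitial level, 8 of 14 fibrillar collagen genes were below in all 6 libraries and none above, and of 20 elastic fibre genes 8 were below and none above. Col1a1, the main chain of type I collagen, was at 175, 279, 464, 227, 322 and 258 CPM in the alveolar gate and at 2187, 954, 1429, 1293, 798 and 630 CPM in the adventitial gate. Fbn1 (fibrillin 1) averaged 99.3 ± 64.1 CPM, where no adventitial library was under 434 CPM. Eln (elastin) was at 234 ± 108 CPM and overlapped with the adventitial range of 105 to 429 CPM.

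Prelp, a leucine-rich proteoglycan gene of basement membranes, was the only one of 14 proteoglycan genes above in all 6, at 461 ± 145 CPM against at most 195 CPM. Dcn, Lum, Vcan and Gpc3 were below. Dcn itself was at 2110, 2746, 7830, 511, 2387 and 1456 CPM in the alveolar gate, and the highest value came from het replicate 1, the library with 21 barcodes in sub-cluster 3.

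Lipid storage marks part of the alveolar fibroblasts in some accounts of the lung. Plin2 (a lipid droplet coat protein), Cd36 (a fatty acid transporter) and Lipa (lysosomal lipase) were above the adventitial level in all 6 libraries, of 9 lipofibroblast genes measured. Plin2 averaged 172 ± 99.9 CPM in the alveolar gate, while all other organ barcodes ranged from 251 to 753 CPM. Cd36 was at 168, 116, 33.1, 739, 167 and 499 CPM, with the high values in null replicate 2 and the null-titled library. The summed 6 endothelial markers were at 208, 815, 157, 966, 499.7 and 1406 CPM in the same order, highest in those libraries too, and their part in the Cd36 level was not tested. Pparg, the regulator of lipid storage, had 6 UMIs in 0.987% of barcodes.

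Aldh1a1, an enzyme gene of retinoic acid synthesis, was at 349.5, 652, 339.7, 483, 644 and 749 CPM, above both other gates in all 6 libraries, while Aldh1a2 and Aldh1a3 were below the adventitial level. Of 15 genes of fibrotic activation, none was above and 5 were below, Postn, Timp1, Sfrp1, Col1a1 and Col3a1. Cthrc1, a gene of activated fibroblasts in lung fibrosis, had 1 UMI in the 304 barcodes. Among 14 inflammatory genes, the adhesion molecule gene Vcam1 was above in all 6 at 315 ± 228 CPM and 5 were below, the chemokine genes Ccl2 and Ccl7 and Il33, C3 and C4b.

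The 15 genes with the highest ratio of alveolar gate to all other organ barcodes, among genes of at least 50 CPM, were Wisp2, Kcne4, C7, Colq, Robo2, Itga8, Tcf21, Fat3, Slc7a10, Ccl11, Pdgfra, Scube2, Mfap4, Scn3a and Apod. Colq, known for anchoring acetylcholinesterase, was at 79.3 ± 24.9 CPM against 1.86 ± 2.36 CPM in the adventitial gate. Scn3a, a voltage-gated sodium channel subunit gene, was at 108, 46.5, 157, 170, 99.9 and 250 CPM, against 0 in 5 adventitial libraries and 1.82 CPM in the other, and 0 in all mural libraries. Apod and Ccl11 lay mainly in sub-cluster 3, at 1751 and 651 CPM there against 12.2 and 6.12 CPM in the other gated barcodes.

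**Figure D3:**
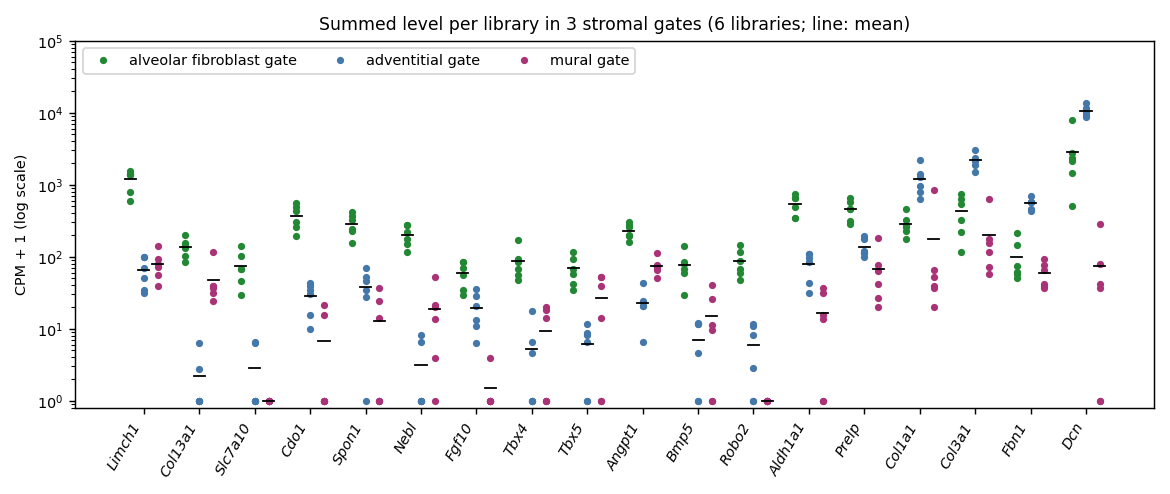
Levels of 18 genes in 3 stromal gates, each dot a library (6 per gate) and each line the mean, on a log axis of CPM + 1. The alveolar gate (green) lies above the adventitial gate (blue) in every library for Limch1, Col13a1 and Angpt1 and below it for Col1a1, Col3a1, Fbn1 and Dcn.

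The targeted gene could not be checked in these barcodes. Nalcn had 2 UMIs among 652853 (3.06 CPM), from null replicate 3 and the null-titled library, and adventitial barcodes had 12 UMIs (5.08 CPM). Unc79 and Unc80, genes of partner subunits of the channel, had no UMI, which allows up to 4.60 CPM, and Prom1, whose promoter drives the recombinase, had 1. The genotype of the barcodes could not be read from their transcripts at this depth.

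The next question was whether alveolar fibroblasts took a different share of the organ pool in mice with Nalcn deleted. The share per library, of all barcodes within the limits, was 0.252%, 0.197%, 0.143%, 0.161% and 0.348% in wt replicates 1 to 5. It was 0.613% and 0.222% in het replicates 1 and 2, and 0.333% and 0.523% in null replicates 2 and 3. Behind these shares stood 15, 36, 8, 21 and 1 wt barcodes, 46 and 9 het barcodes and 29 and 49 null barcodes. The highest wt library, replicate 5, rests on 1 of 287 barcodes, and its exact 95% Clopper-Pearson interval, which covers counting error only, ran from 0.00882% to 1.93%. The interval of het replicate 1 ran from 0.449 to 0.817% and that of wt replicate 2 from 0.138 to 0.273%.

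Deleted libraries (het and null) averaged 0.423% ± 0.178 (SD, n = 4) and wt libraries 0.220% ± 0.0830 (SD, n = 5), a difference of 0.203 percentage points (exact two-sided permutation p = 0.0794, where 126 splits allow no p under 0.0159). The difference did not pass 0.05. Null libraries averaged 0.428% ± 0.135 (SD, n = 2, exact p = 0.190) and het libraries 0.418% ± 0.277 (SD, n = 2, exact p = 0.286), and with 21 splits neither could go below 0.0952. Without het replicate 1 the difference between het and wt was 0.00197 percentage points. The 3 comparisons share the wt libraries. With at least 4 gate genes required, the deleted share was 0.193% ± 0.0692 and the wt share 0.0710% ± 0.0417 (exact permutation p = 0.0317, n = 4 and 5). Under stricter quality limits (a minimum of 500 genes, a mitochondrial share no higher than 20%), the difference between deleted and wt was 0.125 percentage points (exact permutation p = 0.333). With only barcodes of at least 1000 UMIs kept, thinned to 1000 and gated anew, it was 0.137 (exact permutation p = 0.190). Thinning can also lose UMIs of exclusion genes, so barcodes that the gate had left out can enter. Gated barcodes went from 21 to 28 in wt replicate 4 and from 46 to 32 in het replicate 1. The het difference, 0.198 with the limits used here, was 0.0629 under the stricter limits and 0.0703 after thinning, and the null difference was 0.187 and 0.204.

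The barcodes of sub-clusters 1 and 2 took 0.0673%, 0.0658%, 0.107%, 0.107% and 0 in wt replicates 1 to 5, 0.240% and 0.148% in het, and 0.276% and 0.363% in null. On this denominator the 4 deleted libraries lay above the 5 wt libraries. They counted 4, 12, 6, 14 and 0 wt barcodes, 18 and 6 het barcodes and 24 and 34 null barcodes. The order depended on the sub-clusters taken and on the denominator. With sub-cluster 6 added (184 barcodes) the shares were 0.0673%, 0.0987%, 0.125%, 0.107% and 0.348% for wt, the last from 1 barcode, 0.253% and 0.148% for het and 0.287% and 0.363% for null, and wt replicate 5 lay above 3 of the 4 deleted libraries. Per 100 barcodes with at least 3 markers of alveolar type 2 cells, sub-clusters 1 and 2 numbered 2.27, 3.36, 40, 48.3 and 0 for wt, 22.2 and 75 for het and 58.5 and 75.6 for null, and het replicate 1 lay below wt replicates 3 and 4. Over the 3 stromal gates together they made up 5.63%, 4.62%, 7.14%, 8.48% and 0 of wt replicates 1 to 5, 8.41% and 5.17% of the het libraries and 18.0% and 18.6% of the null libraries, and het and wt overlapped. Because sub-clusters 1 and 2 were picked with these values known, the order is given without a test, and Gpx5 and Sftpc, which set sub-cluster 2 apart, were also among the genes called between genotypes below. The 2 ungrouped libraries did not follow 1 label: the null-titled library, with a wt strain entry, was at 0.344% and the het-titled library, with a null strain entry, at 0 of 4323 barcodes, which allows up to 0.0694%. For wt replicate 5, 0 of 287 barcodes allows up to 1.05%.

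The makeup of the pool differed between libraries, and no test of it by genotype was made. Barcodes with at least 3 kidney proximal tubule markers made up 33.0%, 44.2%, 5.37%, 2.87% and 11.5% of wt replicates 1 to 5, 5.01% and 8.28% of the het libraries and 6.36% and 12.9% of the null libraries. Only wt replicates 1 and 2 stood apart. Barcodes with at least 3 epididymal markers made up 3.23%, 0.872% and 0.357% of wt replicates 1 to 3, which came from males, 4.71% and 4.55% of the het libraries and 12.4% and 23.9% of null replicates 2 and 3. None were found in wt replicates 4 and 5, from females whose pools held uterus. Set against barcodes with at least 3 alveolar type 2 markers, another lung cell, gated barcodes numbered 8.52, 10.1, 53.3, 72.4 and 100 per 100 type 2 barcodes in wt (the last being 1 against 1), then 56.8 and 112.5 for het and 70.7 and 109 for null. Set against the 3 stromal gates together, they made up 15.4% ± 4.95 in wt and 19.5% ± 8.17 in deleted libraries (exact permutation p = 0.365, n = 5 and 4). By genotype this was 24.3% ± 3.52 in null and 14.6% ± 9.71 in het libraries (SD, n = 2 each). A change in the number of alveolar fibroblasts and a change in how much of each organ entered the pool cannot be told apart here.

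**Figure D4:**
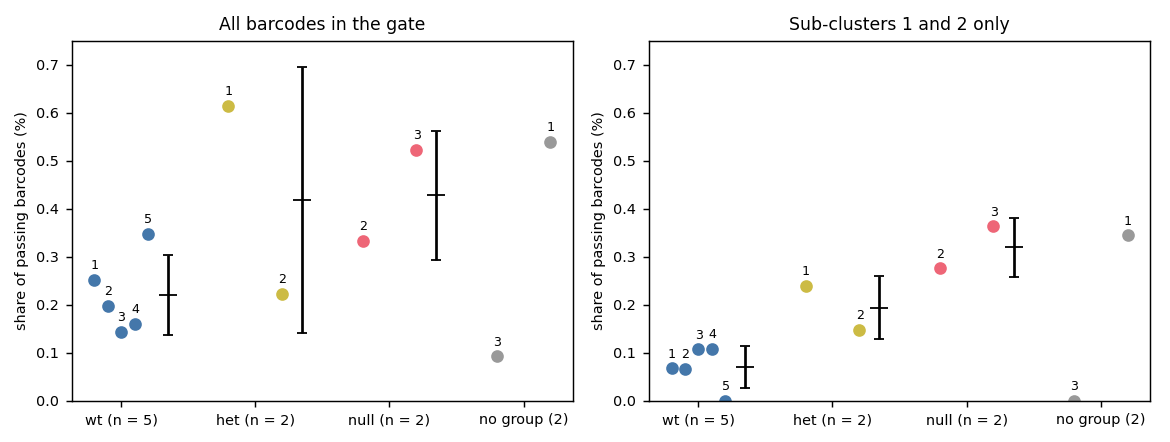
Share of barcodes within the quality limits that fell in the gate (left) and in sub-clusters 1 and 2 (right), in percent. Each dot is an organ library with its replicate number, and bars show the mean and 1 SD per genotype. On the left the wt libraries run from 0.143% to 0.348% and overlap with het replicate 2 at 0.222%, and on the right all deleted libraries, from 0.148% up, lie above the wt maximum of 0.107%, an order that was lost with sub-cluster 6 added, which puts wt replicate 5 (1 barcode) at 0.348%, and over the other denominators.

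Without null replicate 3, the library that went against its sex label, the difference in share between deleted and wt libraries was 0.169 percentage points (exact permutation p = 0.179, n = 3 and 5), and that between null and wt was 0.113.

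Expression was compared between genotypes in the 5 grouped libraries with at least 20 gated barcodes, wt replicates 2 and 4, het replicate 1 and null replicates 2 and 3, with 181 barcodes and 35201 to 148794 UMIs per library. With genotype and sex as terms, the fit of deleted against wt left 2 residual degrees of freedom. The null, het and sex fits left 1 each, and the adjusted p-values of their calls below come from those fits. Between deleted and wt libraries the edgeR quasi-likelihood test, with sex as covariate and Benjamini-Hochberg adjustment, called none of 2578 genes (0.0%), 82 (3.18%) had an unadjusted p under 0.05, and DESeq2 called 4, all lower. Without null replicate 3 the edgeR test called 22 genes, 2 higher and 20 lower, with 1 residual degree of freedom. In that fit wt replicate 4 was the only library labelled female, so with sex as covariate the wt level rested on wt replicate 2. With no sex covariate, also without null replicate 3, the test called 0 of 2005 genes. In libraries with at least 5 gated barcodes, again without null replicate 3, it called 0 of 1345. The calls between single genotypes, 11 genes (0.427%; 87, or 3.37%, at an unadjusted p under 0.05) for null and 5 (0.194%; 209, or 8.11%, unadjusted) for het, held no gene of the alveolar fibroblast list. The null calls fell to 0 without het replicate 1, one of the 5 libraries from which the spread was estimated, while the log2 differences of Gpx5, Sftpc, Spag11b and Alb were 7.91, 5.25, 6.76 and 3.67 without it and 7.83, 5.17, 6.69 and 3.64 with it, and 1025 genes were tested without it in place of 2578. The null calls and the het calls both fell to 0 without the sex covariate or with Scrublet-marked barcodes left out. Without null replicate 3, libraries with at least 5 gated barcodes gave 7 null calls, all higher, 0 het calls (55 of 1345 genes at an unadjusted p under 0.05) and 2 sex calls. The same 5 libraries without it and without the sex covariate gave 1 null call, 0 het calls (53 of 2005 unadjusted) and, without the genotype term, 0 sex calls (47 unadjusted).

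None of the 11 tested alveolar fibroblast markers was called in any comparison. Limch1 was at 598 and 1350 CPM in wt, 795 in het and 1420 and 1399 in null, a log2 difference between deleted and wt of 0.41 ± 0.47 (SE). Angpt1 differed by -0.10 ± 0.50, Aldh1a1 by 0.01 ± 0.47 and Mgp (matrix Gla protein) by 0.68 ± 0.61. The median log2 difference of the 11 markers was 0.03, beside -0.03 over all genes.

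Lists of invasion and fibrosis genes were read as well. The study's text names 10 genes of invasion and epithelial-mesenchymal transition as raised in gastric stem cells after Nalcn deletion, a different cell type. Of these, 6 could be tested in the gated barcodes, and none was called in any comparison. Timp3, Sparc and Mmp19 differed between deleted and wt by -0.48 ± 0.46, 0.31 ± 0.53 and 0.60 ± 0.84. Of 11 tested genes of fibrotic activation none was called. Col1a1 differed by 0.60 ± 0.58. In simulated counts of this size the same test found 32% of 4-fold and 60% of 8-fold changes between deleted and wt and no 2-fold change, with 11 false calls, so changes of such sizes could be missed here.

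The 9 genes (0.349%) higher in null than in wt were epididymal, type 2 cell and liver genes. Gpx5, an epididymal glutathione peroxidase, had 4 and 0 UMIs in wt replicates 2 and 4, 4 in het replicate 1 and 290 and 36 in null replicates 2 and 3 (log2 difference 7.83 ± 0.83, edgeR adjusted p = 1.61e-05). In null replicate 2, 286 of the 290 UMIs sat in 1 barcode, and in null replicate 3 the 36 UMIs were spread over 20 of 49 barcodes. The epididymal cystatin and defensin genes Cst11, Cst12, Defb47, Defb20 and Spag11b were also called, and Cst11 was at least 27.0-fold higher than a floor of 3 counts over the wt libraries. In null replicate 2, 1 barcode per gene held 42 of 43, 32 of 32, 28 of 28, 90 of 95 and 65 of 67 of their UMIs, in this order. In null replicate 3 they had 10, 7, 1, 34 and 21 UMIs in 9, 6, 1, 27 and 16 barcodes. Whether it was the same barcode for each gene was not tested. In the barcodes outside the gate Gpx5 stood at 9894 and 7821 CPM in the null, 3064 and 8188 in the het and 1419, 151, 32.5, 0 and 0 CPM in wt replicates 1 to 5. Het replicate 2 was thus within the range of the null libraries.

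Sftpc, the surfactant protein C gene of type 2 cells, had 29 and 0 UMIs in wt, 3 in het and 298 and 20 in null (5.17 ± 0.72, adjusted p = 0.000295), and the 298 UMIs sat in 1 barcode. Sftpa1, another surfactant protein gene, had 30 UMIs in 1 barcode of null replicate 2 and 2 UMIs in 1 barcode of null replicate 3. Alb (albumin) was spread more evenly, with 2 and 2 UMIs in 2 and 1 wt barcodes, 25 in 14 het barcodes and 12 and 33 in 9 and 19 null barcodes (null against wt 3.64 ± 0.80, adjusted p = 0.0406). Outside the gate Alb was at 50.7, 9.93, 297, 48.8 and 55.8 CPM in wt replicates 1 to 5, 149 and 340 CPM for het and 240 and 202 CPM for null. In the gate it was at 57.8, 13.4, 190, 46.5 and 0 CPM for wt, 207 and 303 CPM for het and 341 and 366 CPM for null. Wt replicate 3, which was too small for the test, lay above both null libraries outside the gate. The het-titled library was at 105 CPM in the gate and 591 CPM outside it, and the null-titled library at 33.3 and 68.8 CPM. The part of the level outside the gate in this call was not tested.

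Of the 2 genes (0.0776%) lower in null than in wt, Kap had 2187 UMIs in wt replicate 2, 1215 of them in 1 barcode, and 0 in the other 4 libraries (at least 476-fold lower in null, and at least 459-fold lower in het). Sub-clusters 1 and 2 held 15 of these UMIs. Saa3, an acute-phase gene, had 12 and 23 UMIs in 1 barcode each of the wt libraries and 1 in null (-5.34 ± 1.13, adjusted p = 0.0296). The haemoglobin gene Hba-a2, named by rule although it did not pass, was at -3.17 ± 0.74 (adjusted p = 0.0588).

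Of the 3 genes (0.116%) higher in het than in wt, Apod had 12 and 10 UMIs in wt and 175 in het replicate 1 (4.45 ± 0.85, adjusted p = 0.0363), 120 of them in 1 barcode and 0 in sub-clusters 1 and 2. The aggrecanase gene Adamts4 had 3 and 8 UMIs in wt and 60 in het, in 14 barcodes, again with 0 in sub-clusters 1 and 2 (4.68 ± 0.95, adjusted p = 0.0437). The chemokine gene Ccl7 had 3 and 9 UMIs in wt and 73 in het (4.73 ± 0.92, adjusted p = 0.0363), 7 of them in sub-clusters 1 and 2. These rises came from a library in which sub-cluster 3 was 21 of 46 barcodes, against 5 of 36 and 5 of 21 in the wt libraries, and its part in the calls was not tested. Kap and Hbb-bt were the 2 genes (0.0776%) called lower in het. For Hbb-bt this rested on wt replicate 2, at 5968 CPM, while wt replicate 4, at 186 CPM, lay below het replicate 1 at 224 CPM. The single het library was assumed to vary like the others.

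**Figure D5:**
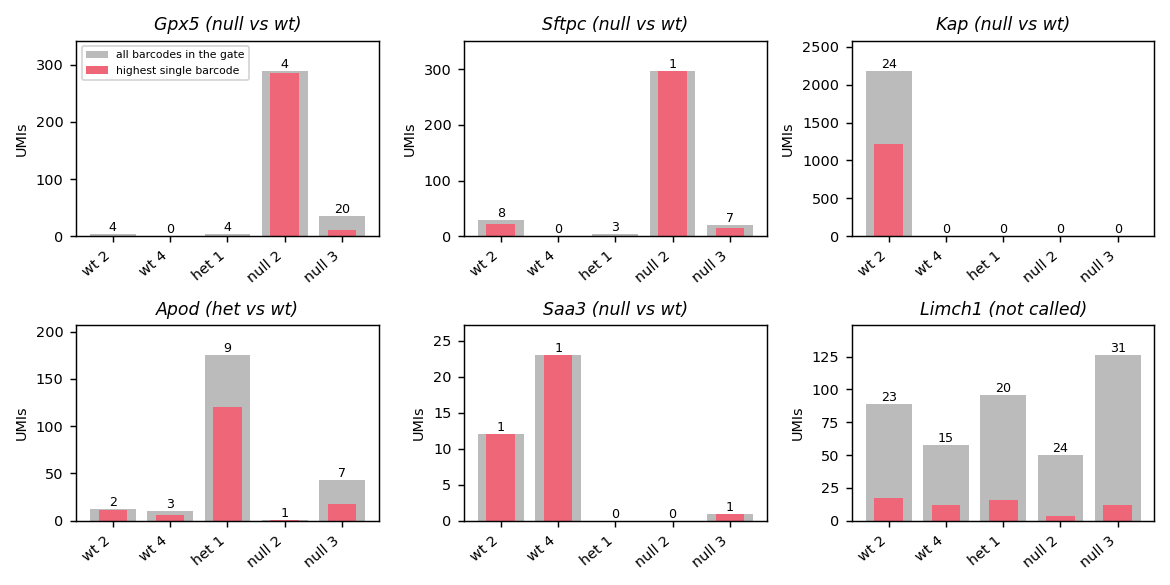
UMIs of 6 genes in the gated barcodes of the 5 libraries compared. Grey bars show all gated barcodes, red bars the highest single barcode, and the number above a bar is the count of barcodes with a UMI. In null replicate 2, 286 of 290 Gpx5 UMIs and all 298 Sftpc UMIs sit in 1 barcode, while Limch1, which was not called, is spread over 15 to 31 barcodes per library.

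Between libraries labelled female and male, 5 of 2578 genes (0.194%) were called, and 135 (5.24%) had an unadjusted p under 0.05. Xist alone (0.0388%) was higher in females, with 86 and 140 UMIs in wt replicate 4 and null replicate 3 and 0 or 1 in the males. The other 4 (0.155%) were lower. Kap was at least 318-fold lower in females, and Sftpc (-5.25 ± 0.72), Gpx5 (-4.26 ± 0.74) and Hbb-bt (-3.84 ± 0.76) were the others. All 2187 male Kap UMIs came from wt replicate 2. The males het replicate 1 and null replicate 2 had 0, as did both libraries labelled female. The male Sftpc and Gpx5 counts were mostly the single barcodes of null replicate 2 described above, and 888 of the 928 male Hbb-bt UMIs came from 17 barcodes of wt replicate 2. All sex calls fell to 0 with at least 4 gate genes, without Scrublet-marked barcodes or without het replicate 1. Sftpc turned to 0.76 without Scrublet-marked barcodes, and Gpx5 to 0.85 there and 1.30 with at least 4 gate genes (log2). No gene of the alveolar fibroblast, niche ligand, collagen or elastic fibre lists was called between the sexes.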

How the data were processed

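The authors aligned reads from hashtagged single-cell libraries to mm10 with Cell Ranger (2.1.1 per the submitters' notes, 3.0.2 per the file headers), and the deposited values are raw UMI counts per gene and barcode. Barcodes under 200 genes or over 25% mitochondrial UMIs were dropped. Hashtag counts were not used. The gated barcodes, gene lists and named genes were chosen with earlier results of these data known. Genes were named by list membership, by the largest called log2 changes (up to 5 per direction, or the smallest p where fewer than 3 were called) and by the 15 highest ratios to other organ barcodes. Marker genes counted for a sub-cluster at 2-fold over other organ barcodes and in 10% of its barcodes.

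Sub-clusters came from Leiden clustering (resolution 0.5, 30 components, 15 neighbours, 2000 genes, scanpy 1.11.5). Barcodes with the top Scrublet scores, up to a share set in advance per library, were marked. They were kept, and left out in an alternative. Counts were summed per library with at least 20 gated barcodes and tested with edgeR 4.0.16 (R 4.3.3; quasi-likelihood, TMM scaling, filterByExpr, sex as covariate, Benjamini-Hochberg threshold 0.05), leaving out the 11 gate genes, after tests on simulated counts. DESeq2 1.42.0 was an alternative. Shares were compared with exact two-sided permutation tests over libraries. A fold against libraries at 0 used a floor of 3 counts over the group. Coordinates are from the mm10 annotation. Some results for single genes are not reported here.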

Additional observations from a re-analysis of the deposited data

Results flagged for a closer look

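Among 44 groups of 4 or 5 libraries, of shares or of the summed level of marker lists, 9 held 1 library far from the others. All 9 were marker-list groups of 4 libraries, and chance meets the rule in about 1 in 20 independent groups. These groups share libraries and barcodes, and some sums rest on few UMIs, so the count is not read against that rate. Libraries with fewer than 5 gated barcodes were left out of the marker-list groups, so wt replicate 5, with 1 gated barcode, is not in the ranges. In gated barcodes of wt replicate 2, alveolar type 2 markers summed to 1364 CPM (the other wt libraries 0 to 46.5), of which Napsa alone, also a leading gene of the kidney-marked sub-cluster 7, gave 1169 CPM from 174 UMIs while Sftpb, Sftpa1, Lamp3 and Slc34a2 had 0, kidney proximal tubule markers to 18737 CPM (303 to 616) and lipofibroblast genes to 2339 CPM (861 to 1076). In wt replicate 4, endothelial markers summed to 815 CPM (173 to 253). In null replicate 2, alveolar type 2 markers summed to 9829 CPM (the other deleted libraries 0 to 333) and epididymal markers to 14318 CPM (182 to 1188). In het replicate 2, which had 9 gated barcodes, pericyte markers summed to 2058 CPM (44.4 to 199), smooth muscle and myofibroblast markers to 6902 CPM (189 to 713) and reproductive tract stroma markers to 182 CPM (49.7 to 56.8), from 1 UMI of Hoxa10 and 2 of Hoxa11. Of the type 2 UMIs of null replicate 2, the 298 of Sftpc sat in 1 barcode. Gated barcodes were also present in both libraries without a group, 4 in the het-titled library and 86 in the null-titled library.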

How the results depend on the processing

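With at least 4 gate genes the share difference between deleted and wt libraries was 0.122 percentage points (exact permutation p = 0.0317), the only alternative in which it passed 0.05. Under stricter quality limits it was 0.125 (exact p = 0.333), after thinning 0.137 (exact p = 0.190) and without Scrublet-marked barcodes 0.202 (exact p = 0.143). Over the 3 stromal gates as denominator the null difference was 8.85 points (exact permutation p = 0.0952, the lowest that 21 splits allow). The het difference reversed to -0.818 points over these gates (exact permutation p = 0.857). Over that denominator sub-clusters 1 and 2, an alternative chosen after seeing the data, differed by 7.38 points for deleted, 13.1 for null and 1.62 for het against wt. With sub-cluster 6 added to them, also chosen after seeing the data, the share difference was 0.114 points for deleted, 0.176 for null and 0.0515 for het. Leaving out 1 library at a time gave differences of 0.139 to 0.270 points for deleted, 0.113 to 0.303 for null and 0.00197 to 0.393 for het.

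Genes called between deleted and wt (0) became 16 with no filter on low counts, 4 with DESeq2 and 5 without Scrublet-marked barcodes, and ranged from 0 to 22 with 1 library left out. The 22, without null replicate 3, became 0 with no sex covariate and 0 in libraries with at least 5 gated barcodes, alternatives chosen after seeing the data. The null calls (11) became 5 with DESeq2, 4 in libraries with at least 5 gated barcodes (chosen after seeing the data), and 0 without the sex covariate, with at least 4 gate genes, without Scrublet-marked barcodes, or without het replicate 1. The het calls (5) became 10 with no filter, 1 with DESeq2, 1 with at least 5 gated barcodes, and 0 without the sex covariate, with at least 4 gate genes, under stricter quality limits or without Scrublet-marked barcodes. The sex calls (5) became 1 without the genotype term, 3 under stricter limits, 1 with at least 5 gated barcodes, and 0 with at least 4 gate genes, without Scrublet-marked barcodes or without het replicate 1. Between the sexes, Ccl7 reversed to -0.085 without the genotype term, Sftpc to 0.76 without Scrublet-marked barcodes, and Gpx5 to 1.30 with at least 4 gate genes and 0.85 without Scrublet-marked barcodes (log2). The cause was not tested. In the null, het and sex tests with the sex covariate, the other single libraries of the 5 (for het, each) could not be left out for lack of residual degrees of freedom. In alternatives chosen after seeing the data, leaving out null replicate 3 gave 7, 0 and 2 calls (null, het, sex) in libraries with at least 5 gated barcodes, and 1, 0 and 0 without the sex or genotype term, where Ccl7 between the sexes was -0.36. The lone null library was then assumed to vary like the others.

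Replicate numbers are only shared numbers. With the replicate block the share differences were 0.274 (deleted), 0.258 (null) and 0.193 (het) points, and in libraries with at least 5 gated barcodes the block called 0 of 940 genes between deleted and wt. No paired analysis was possible because the 5 libraries of the gene tests share too few numbers across genotypes. Depth limits genes at a few UMIs per library.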

Other observations

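Of 17 immediate early and heat shock genes, 1 (Dusp1, a phosphatase gene) was above the adventitial level in all 6 libraries and 7 were above the mural level, where 4.5% of all genes were. Hspb1 was at 437, 2560, 1218, 2585, 1854 and 4360 CPM in wt replicates 2 and 4, het replicate 1, null replicates 2 and 3 and the null-titled library, and at most 566 CPM in each adventitial library. None of 11 interferon genes was above or below the adventitial level in all 6 libraries, and of 20 basement membrane genes 2 (Nid1 and Hspg2) were below.

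The metalloproteinase inhibitor gene Timp3 was at 1407 ± 422 CPM (SD, n = 6) in the alveolar gate and above the adventitial gate in all 6 libraries, while Sparc, a collagen-binding matrix protein gene, was at 785 ± 215 CPM and below it in all 6. Ogn (osteoglycin) averaged 1028 ± 539 CPM, with its highest value, 2071 CPM, in wt replicate 4. Itga1 and Itga9, integrin subunit genes, were above the adventitial level in all 6 libraries and below the mural level in all 6.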
